A study of Mus musculus with 10 samples.

Results

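The 62 genes described here encode subunits of RNA polymerases I, II and III and of the Mediator complex. They were taken from the gene table of the series as every symbol that starts with Polr1, Polr2 or Polr3, or with Med and a digit, 62 of 17404 genes. RNA polymerase I (Pol I) contributed 8 symbols, RNA polymerase II (Pol II) 13, RNA polymerase III (Pol III) 10 and Mediator 31. Among them, Polr1has and Med9os are antisense neighbours of Polr1h and Med9 and encode no subunit. The libraries were bulk RNA-seq of long-term hematopoietic stem cells (LT-HSCs) sorted from the livers of mouse embryos at stage E14.5, in a study of how fetal liver macrophages act on these cells. KO embryos had the genotype Tnfrsf11aCre; Spi1f/f (n = 6), and WT embryos, the littermate controls, were Tnfrsf11a+/+; Spi1f/f (n = 4). All embryos of both groups therefore carried floxed Spi1, the gene of the transcription factor PU.1, and the KO embryos alone carried Cre, which the Tnfrsf11a locus drives in the macrophage lineage and not by design in the sorted cells. Since no library carried Cre without the floxed allele, effects of Cre and of the loss of Spi1 in macrophages cannot be told apart.

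The nuclear RNA polymerases divide transcription between them: Pol I makes the large ribosomal RNA precursor, Pol II makes messenger RNA and many noncoding RNAs, and Pol III makes transfer RNA, 5S ribosomal RNA and other small RNAs. Each consists of a pair of large catalytic subunits and a set of small ones, some of which are built into several polymerases. Mediator is a large complex that links transcription factors at enhancers to Pol II at promoters. Its head, middle and tail modules form the core, and a separate kinase module, of CDK8 or CDK19 with cyclin C, MED12 and MED13 or their paralogs, binds the core reversibly.

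Total counts on genes ranged from 5315435 to 30941726 per KO library and from 7633446 to 18256010 per WT library. Spi1 itself was not lower in the KO libraries, with 9.10 to 101 CPM (counts scaled to library size) against 6.22 to 50.1 CPM in WT and a log2 fold change of 1.31 (SE 0.69, adjusted p = 0.337). Of 12 stem cell genes, 4 were called higher in KO and none lower (adjusted p below 0.1, beside 1.32% and 2.67% of all genes), with a median log2 fold change of 1.17, and their summed level was 641 to 1810 CPM in KO and 595 to 1006 CPM in WT. Markers of other liver cells were present in both groups at very uneven levels: 8 hepatoblast genes summed to 89.9 to 8784 CPM in KO and 267 to 6020 CPM in WT, 8 endothelial genes to 1133 to 8001 and 265 to 5102 CPM, 13 macrophage genes to 448 to 1012 and 128 to 921 CPM, and the 8 erythroblast genes in the table to 231 to 2473 and 220 to 7000 CPM. Of the macrophage and erythroblast genes, 1 each was called lower and none higher, with medians of −0.79 and −1.40 on the log2 scale. Over 12 granulocyte genes the sums were 22.4 to 1383 and 8.87 to 2205 CPM, and over 8 megakaryocyte genes 273 to 4015 and 273 to 1321 CPM. No gene of the granulocyte, megakaryocyte, hepatoblast or endothelial lists was called, and their medians were 0.53, 1.06, 0.72 and 0.17. The lymphoid genes summed to 0.316 to 6.31 CPM in KO and 1.42 to 14.3 CPM in WT, with none of 3 tested called and a median of −0.40. The lymphoid gene Cd3e was at 0 in every library, Marco of the macrophage list was at 0 in KO and Ly6g of the granulocyte list at 0 in WT. Xist, the RNA of the inactive X chromosome, was at 346 to 361 CPM in 2 KO libraries, at 1.36 to 2.38 CPM in the other 4 and at 106 to 149 CPM in all 4 WT libraries, so the groups were not balanced for Xist. The part of these other cell types in the members' values was not tested. In bulk RNA, fewer cells of a type and less RNA per cell cannot be told apart.

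Several small subunits of the polymerases and of Mediator were lower in KO LT-HSCs, and 1 gene of the Mediator kinase module was higher. All 62 members passed the filter on low counts (at least 11 in total) and were compared by edgeR's quasi-likelihood test, with p adjusted over the 16725 genes tested. At an adjusted p below 0.1, 7 members were lower in KO (Med8, Polr3k, Polr2g, Med29, Polr2l, Polr1c and Med28), beside 2.67% of all genes. Med12l was the 1 member that was higher, beside 1.32% of all genes. At an unadjusted p below 0.05, 20 members were lower and 2 higher, beside 10.2% and 8.6% of all genes. For 8 members every KO library lay below every WT library (Polr1c, Polr2f, Polr2j, Polr2l, Polr3k, Med8, Med28 and Med29), beside 3.48% of all genes, and no member had the reverse order (2.88% of all genes). DESeq2 with a log2 threshold of 0.1, the study's test, also called 7 members lower and 1 higher, beside 3.29% and 3.5% of all genes, and without a threshold 15 lower and 2 higher, beside 6.85% and 5.97%. The median log2 fold change was −0.47 for the 8 Pol I genes, −0.62 for the 13 Pol II genes, −0.15 for the 10 Pol III genes and −0.04 for the 31 Mediator genes, against 0.06 over all genes tested. The Pol I and Pol II medians stayed below 0 in all 24 alternative settings, while that of Pol III was 0.10 without WT library 15416 and 0.13 without WT libraries 15416 and 15420, and that of Mediator lay between −0.13 and 0.08.

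The calls themselves were close to the threshold, with adjusted p between 0.082 and 0.092. No member was called in 10 of the 24 alternatives, and in 9 of these 10 no gene of the whole table was called either. Among those 10 were the fits without KO library 15405, 15406, 15411, 15412 or 15415 and without WT library 15416. All 8 called members kept their direction in all 24. In GRCm38, Med8 lies at chr4:118409337-118415782, Polr3k at chr2:181864337-181870830, Polr2g at chr19:8793127-8798577, Med29 at chr7:28386146-28392708, Polr2l at chr7:141471860-141475132, Polr1c at chr17:46243920-46248054, Med28 at chr5:45520229-45529276 and Med12l at chr3:59005825-59318682.

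**Figure D1:**
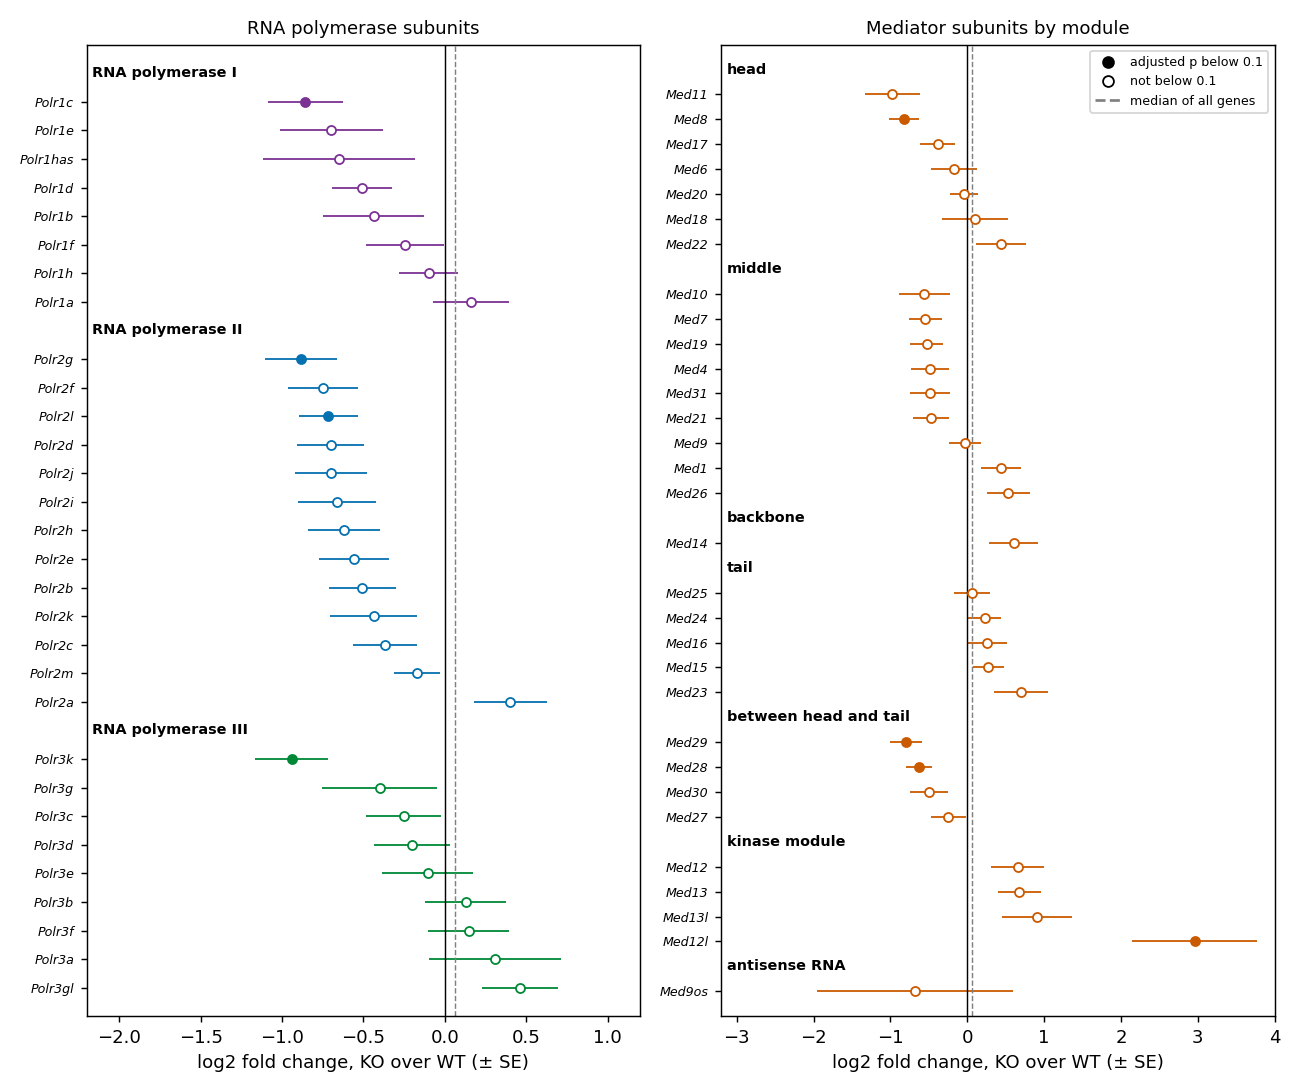
Fitted log2 fold change of KO over WT (x axis, error bars ± SE) for the members, 1 left out, with polymerases on the left and Mediator by module on the right. Filled points have an adjusted p below 0.1, the dashed line is the median of all genes tested (0.06), and of the 13 Pol II genes only Polr2a lies above 0.

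The members' promoters were read for short motifs known from mouse promoters. RefSeq windows (GRCm38.p6) were matched for 52 of the 62 members. The 5 runs below are of 4 members called lower and of Polr2a, the 1 Pol II gene with a fold change above 0, which was not called. Each is the longest stretch outside annotated exons within 250 bases of the start, printed 5′ to 3′ on the gene's own strand, with the motifs GGGCGG (GC box), CCAAT and TATAAA in capitals wherever they occur on either strand.
Polr2l: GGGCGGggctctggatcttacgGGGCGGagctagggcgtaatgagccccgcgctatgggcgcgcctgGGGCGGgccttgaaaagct
Polr3k: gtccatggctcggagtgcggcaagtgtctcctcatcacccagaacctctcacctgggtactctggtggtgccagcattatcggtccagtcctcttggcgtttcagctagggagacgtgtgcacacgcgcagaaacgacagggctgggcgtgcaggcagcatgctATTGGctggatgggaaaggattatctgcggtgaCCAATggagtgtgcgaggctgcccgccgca
Med29: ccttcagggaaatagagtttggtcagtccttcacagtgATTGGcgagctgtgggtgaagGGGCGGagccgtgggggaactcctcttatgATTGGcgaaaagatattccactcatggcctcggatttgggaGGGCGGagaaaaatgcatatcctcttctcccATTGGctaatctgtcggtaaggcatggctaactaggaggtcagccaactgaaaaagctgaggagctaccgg
Med28: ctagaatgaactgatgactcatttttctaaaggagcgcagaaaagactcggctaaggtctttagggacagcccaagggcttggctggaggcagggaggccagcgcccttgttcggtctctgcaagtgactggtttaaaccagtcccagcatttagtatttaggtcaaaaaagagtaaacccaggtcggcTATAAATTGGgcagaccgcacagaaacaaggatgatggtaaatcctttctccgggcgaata
Polr2a: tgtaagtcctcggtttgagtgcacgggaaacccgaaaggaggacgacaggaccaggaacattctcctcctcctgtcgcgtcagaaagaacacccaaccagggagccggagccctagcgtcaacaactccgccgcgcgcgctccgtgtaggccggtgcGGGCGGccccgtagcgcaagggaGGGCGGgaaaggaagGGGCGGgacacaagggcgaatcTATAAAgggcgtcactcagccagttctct
The runs lie at chr7:141475154-141475239 (minus strand), chr2:181864110-181864336 (plus), chr7:28392709-28392940 (minus), chr5:45519979-45520228 (plus) and chr11:69758638-69758883 (minus). Polr2l and Polr2a each hold 3 GC boxes. Polr3k holds 2 CCAAT motifs and no GC box, Med29 holds 3 CCAAT motifs and 2 GC boxes, and in Med28 a TATA box shares a letter with a CCAAT motif on the other strand. Over the 250 bases upstream of the start, a GC box was present in 32 of 52 members (61.5%) and in 35.4% of 27025 genes (Pol II 8 of 10, 80%, and Mediator 18 of 27, 66.7%), and CCAAT in 18 (34.6%) and 37.5%. The ETS-type motif CCGGAAGT was found in 6 members (11.5%) and in 3.23% of all genes, and GAGGAAGT, a form bound by PU.1, in no member window and in 2.79% of genes. The NRF1 palindrome and the YY1 motif AAGATGGCG were also in no member window, against 0.877% and 0.71% of genes, and TATAAA was in 5 (9.62%) against 14.3%. The 27025 genes were all those with a window, tested here or not, and were not matched to the members for expression. These are matches of letters and no measure of binding.

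In Pol II, 12 of 13 genes had a fold change below 0, where 46.9% of all genes did, and 2 of the 13 were called. Pol II genes had short transcripts (median 956 bases), and 63.9% of genes in the shortest quintile of transcript length were below 0. WT values are given in the order of libraries 15416, 15417, 15418 and 15420. Polr2l, a small subunit that Pol I, II and III all contain, had 87.2 CPM in the lowest KO library, a median of 110.2 and 118 in the highest, and 239, 141, 163 and 164 CPM in WT. The groups did not overlap, and the log2 fold change was −0.72 (SE 0.18, adjusted p = 0.084). Polr2g encodes RPB7 of the stalk that protrudes from the enzyme. It had 78.5 to 127 CPM in KO (median 93.9) and 234, 144, 114 and 216 CPM in WT, so that the highest KO library passed the lowest WT library, with a log2 fold change of −0.88 (SE 0.22, adjusted p = 0.084). Its stalk partner Polr2d had −0.70 (SE 0.21, adjusted p = 0.11) and was not called.

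Polr2f and Polr2j were not called although their groups were separate. Polr2f, another small subunit of all polymerases, had 54.4 to 73.0 CPM in KO (median 69.7), and 173, 92.6, 89.2 and 94.0 CPM in WT. Its log2 fold change was −0.75 (SE 0.21, adjusted p = 0.102), and WT library 15416 stood far above the other WT libraries. Polr2j, which pairs with Polr2c early in the assembly of Pol II, had 79.4 to 114 CPM in KO (median 101) and 249, 130.2, 142 and 117 CPM in WT, with −0.70 (SE 0.22, adjusted p = 0.124). Of the exonic bases of Polr2j, 15.9% lie opposite another gene, as do 9.44% of those of Polr2f, and reads there cannot be assigned to a strand. Polr2a, the largest subunit with the catalytic site and the C-terminal repeat domain, was the exception. It had 94.7 to 152 CPM in KO (median 127), and 91.1, 86.1, 138 and 63.4 CPM in WT, with overlapping groups and a log2 fold change of 0.40 (SE 0.22, adjusted p = 0.358). Polr2a stayed above 0 in all 24 alternatives, and the other 12 Pol II genes all stayed below 0 in 23 of them. In the fit without WT libraries 15416 and 15420, Polr2k was at 0.09. The second largest subunit, Polr2b, had −0.51 (SE 0.21, adjusted p = 0.207). Polr2m, which encodes the Pol II-associated protein Gdown1, was nearest to 0 of the rest, at −0.17.

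In TPM, a unit that corrects for transcript length, Polr2a was the least abundant Pol II gene in WT, at 14.95 ± 1.72 TPM (SD, n = 4), and Polr2e the most abundant, at 264 TPM. The extremes were Polr1d (124 TPM) and Polr1has (6.50) in Pol I, Polr3k (70.9) and Polr3f (4.67) in Pol III, and Med28 (182) and Med12l (0.085) in Mediator. These values sum all transcripts of a gene. On coding transcripts alone, Med28 was at 79.1 TPM in WT, below Med10 (115) and Med8 (91.3), and Polr1a, at 0.990, was below Polr1has. Within a library, Polr2a came to 23.0% ± 4.52 of the median TPM of the other Pol II genes without Polr2b in KO (SD, n = 6; 15.8% to 29.7%) and to 11.6% ± 6.34 in WT (SD, n = 4; 7.86%, 9.83%, 21.0% and 7.78%). The WT library 15418 lay inside the KO range, and 1 KO library, 15409, lay below it, so the groups overlapped. This ratio was formed after the fold changes had been seen and is a description without a test. TPM was not used to compare single genes between groups, since the median of all genes was 0.25 higher in KO on the log2(TPM + 1) scale and 0.04 higher on the log2(CPM + 1) scale.

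**Figure D2:**
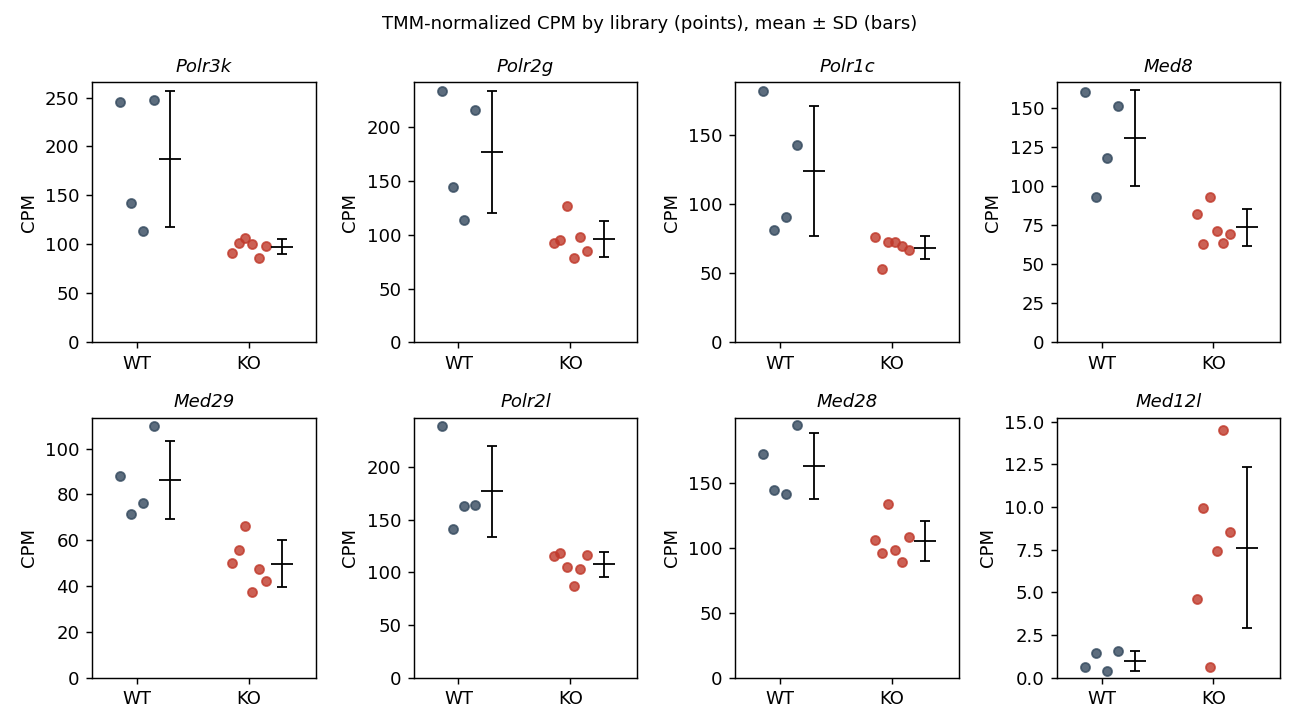
TMM-normalized CPM (y axis, from 0) in each WT and KO library for the 8 members with an adjusted p below 0.1, with mean ± SD beside the points. In Polr3k, Polr1c, Med8, Med29, Polr2l and Med28 the 6 KO points lie below the 4 WT points, in Polr2g 1 KO point does not, and in Med12l 5 of 6 KO points lie above all WT points.

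The subunits shared between polymerases all had fold changes below 0. The 7 are Polr1c and Polr1d, built into Pol I and Pol III, and Polr2e, Polr2f, Polr2h, Polr2k and Polr2l, built into all of the polymerases. Their log2 fold changes ran from −0.86 (Polr1c) to −0.44 (Polr2k), with a median of −0.62, and 2 were called (Polr1c and Polr2l). They were all below 0 in 23 of 24 alternatives, the exception being Polr2k as above. The 2 largest subunits of each polymerase had a median of 0.14, with 4 of 6 above 0 and none called. They were at 0.16 (Polr1a), −0.44 (Polr1b), 0.40 (Polr2a), −0.51 (Polr2b), 0.31 (Polr3a) and 0.13 (Polr3b). Polr1b changed sign without WT library 15416 (0.04), and Polr3a, at 7.63 CPM in WT library 15417 and 24.6 to 44.2 CPM in the other WT libraries, was at −0.0013 without that library.

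In Pol I, 7 of 8 genes were below 0 and 1 was called. Polr1c, which with Polr1d forms the assembly platform of Pol I and Pol III, had 53.3 to 76.2 CPM in KO (median 71.0) and 182, 81.5, 90.6 and 143 CPM in WT. Its groups did not overlap, and its log2 fold change was −0.86 (SE 0.23, adjusted p = 0.091). WT libraries 15416 and 15420 were far above the other WT libraries, and without both the value was −0.33. Polr1d had −0.51 (SE 0.18, adjusted p = 0.166). Polr1e, a Pol I-specific subunit, had −0.70 (SE 0.32, adjusted p = 0.255), the stalk subunit gene Polr1f −0.24 and Polr1h, which encodes a small subunit needed for RNA cleavage, −0.10. Most estimated counts of Polr1a fell on transcripts not annotated as coding: the coding share was 23.6% in KO and 17.6% in WT.

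Pol III genes were mixed, 6 of 10 below 0, with 1 called. Polr3k encodes the small subunit that takes part in RNA cleavage and termination. It had 85.7 to 107 CPM in KO (median 99.6) and 246, 142, 113 and 248 CPM in WT, without overlap, and a log2 fold change of −0.94 (SE 0.22, adjusted p = 0.082). WT libraries 15416 and 15420 were again highest, and the value without them was −0.39. Polr3g and Polr3gl encode alternative versions of the same subunit, of which Polr3g is known as the form of stem and dividing cells. Polr3g made up 22.2% ± 3.30 of their summed TPM in KO (SD, n = 6; 19.0% to 27.2%) and 34.1% ± 17.0 in WT (SD, n = 4; 57.7%, 24.7%, 19.4% and 34.8%). The groups overlapped, and the difference of −12.0 points had p = 0.067 by a two-sided exact permutation test (adjusted p = 0.089 over 4 shares). Without WT library 15416 the difference was −4.13 points. Polr3g changed sign in the fit across genes without that library, from −0.40 to 0.10.

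Across libraries, WT library 15416 held the highest CPM of 24 of the 62 members (38.7%, against 21.1% of all genes tested) and WT library 15420 that of 16 (25.8%, against 15% of all genes). In Pol II, 12 of 13 genes were highest in either of these libraries. After centring each gene over the 10 libraries, the median log2 deviation of the 13 Pol II genes was −0.34 to −0.03 in the KO libraries and 0.67, 0.12, 0.12 and 0.34 in WT, and the groups did not overlap. For Pol I it was −0.38 to −0.03 in KO and 0.60, 0.05, −0.05 and 0.41 in WT. For Pol III, −0.48 to 0.12 and 0.59, 0.10, −0.07 and −0.25, and for Mediator −0.21 to 0.15 and 0.25, −0.02, 0.05 and −0.25, so these overlapped. By this median, WT library 15420 was high for Pol I and Pol II and low for Pol III and Mediator. Single genes were split there. It held the highest CPM of 8 of the 31 Mediator genes and the lowest of 10. Of the 10 Pol III genes it held the highest CPM of 2 and the lowest of 4.

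Mediator genes are given by module, and no difference between modules was tested. Of the 4 genes between head and tail, all were below 0 (median −0.56) and 2 were called. Med28 had 89.3 to 134 CPM in KO (median 102), and 172, 144, 141 and 195 CPM in WT, with a log2 fold change of −0.63 (SE 0.17, adjusted p = 0.091). Coding transcripts held 48.2% of its estimated counts in KO and 45.3% in WT. Med29 had 37.2 to 66.1 CPM in KO (median 48.7), and 87.8, 71.3, 76.1 and 109.8 CPM in WT, with −0.79 (SE 0.21, adjusted p = 0.088). Neither had overlapping groups. Med30 and Med27 had −0.50 and −0.25, and Med27 was the 1 gene of this module to pass 0 in an alternative, the length offset.

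In the head module, which binds Pol II, 5 of 7 genes were below 0 (median −0.18). Med8 had 63.1 to 92.9 CPM in KO (median 70.0) and 159.9, 93.1, 118 and 151 CPM in WT, with a log2 fold change of −0.83 (SE 0.20, adjusted p = 0.082). Its groups did not overlap, though the highest KO and the lowest WT library were at nearly the same level. Med11 had a log2 fold change of −0.98 (SE 0.36, adjusted p = 0.17), with 136 CPM in WT library 15420 against 37.6 to 39.7 CPM in the other WT libraries and 26.1 to 37.8 CPM in KO. Med17, which holds the head together, had −0.39 (adjusted p = 0.388). In the middle module 7 of 9 were below 0 (median −0.48) and none was called. The exceptions were Med26, linked to elongation factors, at 0.53, and Med1, the contact of nuclear hormone receptors and of GATA factors, at 0.44 (adjusted p = 0.332 and 0.393).

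The scaffold subunit Med14, the 5 tail genes and the 4 genes of the kinase module were all above 0, as were 53.1% of all genes. Genes with long transcripts, such as Med14 and those of the kinase module, were above 0 more often, as given below with the lengths. Med14 was at 0.60 (SE 0.32, adjusted p = 0.333) and above 0 in all 24 alternatives. Med14 and Med12 are on the X chromosome, and in the fit with Xist as a covariate they were at 0.66 and 0.60. Tail genes, which receive contacts from many activators, had a median of 0.26, from 0.06 (Med25) to 0.70 (Med23), with Med15 at 0.27, Med16 at 0.26 and Med24 at 0.22. None was called, and in 4 of 24 alternatives Med25 or Med16 lay below 0. The kinase module had a median of 0.79, and its 4 genes were above 0 in all 24 alternatives.

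Med12l, the paralog of Med12, was nearly absent from WT. It had 0.61, 1.42, 0.37 and 1.56 CPM there, from 8, 16, 5 and 11 counts, and 0.65 CPM (12 counts) in KO library 15409. The other KO libraries had 4.63 to 14.53 CPM, from 63 to 470 counts, above every WT library. The log2 fold change was 2.96 (SE 0.81, adjusted p = 0.092). It was between 2.70 and 3.25 when single libraries were left out, with 1 of 10 such fits calling it, the fit without KO library 15409 (adjusted p = 0.049). Of its counts, those on the longest coding transcript (11006 bases) were 12.35 to 384 per KO library and 3.99, 0, 0 and 0.21 per WT library, while a coding transcript of 10159 bases held most WT counts (4.85 to 16.3 per library) and 0 to 81.0 in KO. Of its exonic bases, 17.3% overlap Igsf10 on the opposite strand, and the counting was not stated to use strand. Igsf10 had 2.89 to 17.9 CPM in KO and 0.61 to 11.5 CPM in WT (log2 fold change 0.78, adjusted p = 0.583).

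The other kinase module genes were more abundant and none was called. Med12 had 34.2 to 87.6 CPM in KO and 33.7, 46.1, 63.7 and 17.7 CPM in WT, a log2 fold change of 0.66 (SE 0.35, adjusted p = 0.335). Coding transcripts held 34.0% ± 8.04 of its estimated counts in KO (SD, n = 6) and 18.2% ± 11.7 in WT (SD, n = 4). Med13 had 24.0 to 32.9 CPM in KO and 9.71, 21.8, 15.8 and 24.2 CPM in WT, with 0.67 (SE 0.28, adjusted p = 0.215) and an overlap of 1 KO and 1 WT library. Med13l had 0.90 (SE 0.46, adjusted p = 0.309). In TPM, the 4 genes summed to 6.05% ± 1.91 of the rest of Mediator in KO (SD, n = 6; 3.02% to 7.57%) and to 3.35% ± 1.36 in WT (SD, n = 4; 2.47%, 4.46%, 4.55% and 1.91%), a description without a test. These sums used all transcripts and were largely Med12. Coding transcripts held 3.56 of 43.5 TPM of Med12 in KO and 0.924 of 26.4 TPM in WT (means). For Med13l they held 3.26 of 11.8 TPM and 1.10 of 4.54 TPM. The percentage is therefore mostly of RNA not annotated as coding.

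The kinases of this module were compared with each other within libraries. Cdk8 had 21.0 to 35.3 CPM in KO and 32.6 to 60.0 CPM in WT (log2 fold change −0.68, SE 0.23, adjusted p = 0.15), and its paralog Cdk19 24.0 to 54.9 and 16.4 to 27.2 CPM (0.73, SE 0.29, adjusted p = 0.2). Ccnc, their cyclin, was at 0.05. As a share of Cdk8 and Cdk19 together in TPM, which no scaling of the library can move, Cdk19 came to 25.6%, 36.0%, 24.2%, 38.2%, 36.7% and 27.5% in the KO libraries and to 16.05%, 23.5%, 13.25% and 8.81% in WT. All KO libraries lay above all WT libraries. The means were 31.4% ± 6.27 (SD, n = 6) and 15.4% ± 6.16 (SD, n = 4), and the difference of 16.0 points had p = 0.0095 by a two-sided exact permutation test over the 210 splits, adjusted p = 0.038 over the 4 shares tested. It stayed between 13.8 and 18.7 points without any 1 library, and its adjusted p was above 0.05 without KO library 15405 or 15415 (0.064 each), WT library 15416 (0.095) or WT library 15420 (0.071). Med12l as a share of Med12l and Med12 was 1.82% ± 0.906 in KO (SD, n = 6) and 0.311% ± 0.193 in WT (SD, n = 4), exact permutation p = 0.033, adjusted p = 0.067. KO library 15409 (0.242%) lay among the WT libraries, and without it the adjusted p of this permutation test was 0.016. It was 0.064 to 0.119 when any other single library was left out, and 0.133 on estimated counts, all above 0.05. For Med13l in Med13l and Med13, 72.3% in KO and 61.3% in WT, exact permutation p was 0.295. All 4 shares used all transcripts of a gene, and the coding part of Cdk8 and Cdk19 is not given here. Most TPM of Med12 and Med13l lay on transcripts not annotated as coding, as given above. Coding transcripts held 100% of the Med12l counts in KO and 99.9% in WT. The Med12l share was thus set largely against noncoding Med12 RNA, and it was not formed on coding transcripts alone.

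**Figure D3:**
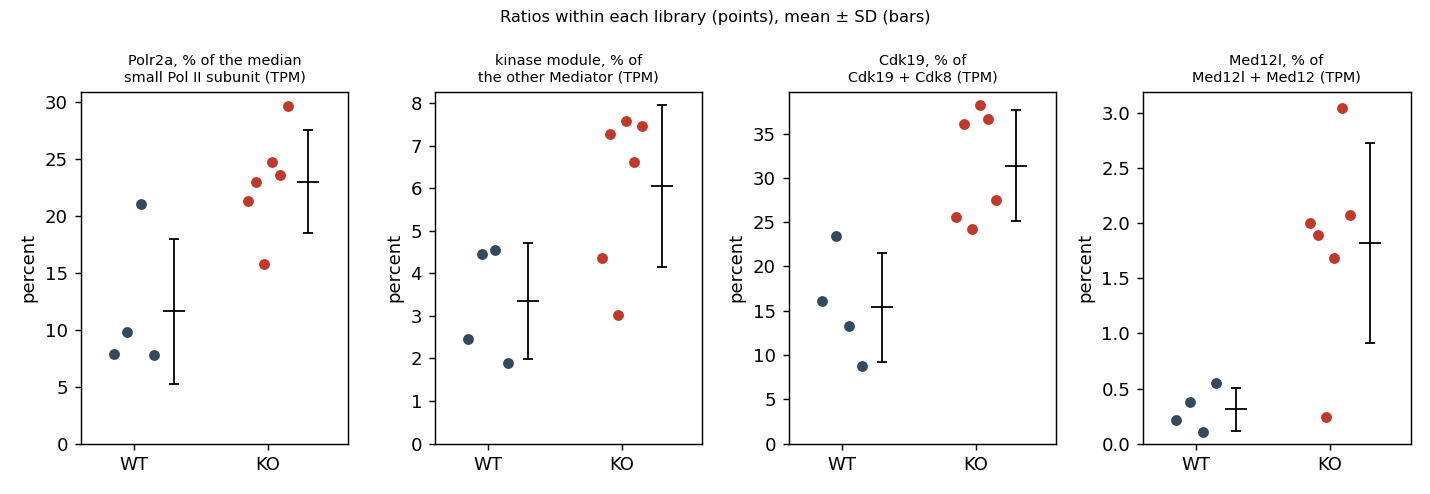
Percentages formed within each library from TPM (y axes, from 0), WT and KO libraries as points with mean ± SD: Polr2a over the median small Pol II subunit, the kinase module over the rest of Mediator, Cdk19 over Cdk19 and Cdk8, and Med12l over Med12l and Med12. The groups are separate for Cdk19 and overlap for the others. TPM is summed over all transcripts of a gene, and most of that of Med12 lies on transcripts not annotated as coding.

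Fold changes of the members rose with transcript length, with a higher rank correlation than over all genes. The 62 members and all genes were not matched for expression level. The median gene had 28.3 TPM in WT among the members and 4.82 TPM among all genes tested. Whether level contributes to the difference in correlation was not tested. Members with transcripts shorter than the median gene were below 0 in 38 of 45 cases, and those with longer ones above 0 in 13 of 17. Spearman's rho between the log2 fold change and the mean transcript length was 0.641 over the 62 members and 0.219 over 16277 genes, as a description over genes that share the same libraries and depth. It was 0.815 over the 31 Mediator genes, 0.517 over the 13 Pol II genes, 0.405 over Pol I and −0.164 over Pol III. In the shortest length quintile of all genes the median was −0.25, and its 23 members had −0.54. Lower calls were also more frequent among short genes in general. In this quintile, 225 of 3256 genes and 3 of the 23 members were called lower. At an unadjusted p below 0.05 edgeR had 733 of these genes and 11 of the members lower. All KO libraries lay below all WT libraries for 283 of the genes and 4 of the members. In the longest quintile the median was 0.33, and the 7 members had 0.66. There 2181 of 3256 genes and all 7 members were above 0. With an offset for the length trend of each library, no gene in the table was called. The medians then were −0.36 for Pol I, −0.39 for Pol II, −0.08 for Pol III and 0.06 for Mediator (all genes 0.07), 9 members were lower and 2 higher at an unadjusted p below 0.05, and rho over the members was 0.411. What length stands for in these libraries was not tested.

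**Figure D4:**
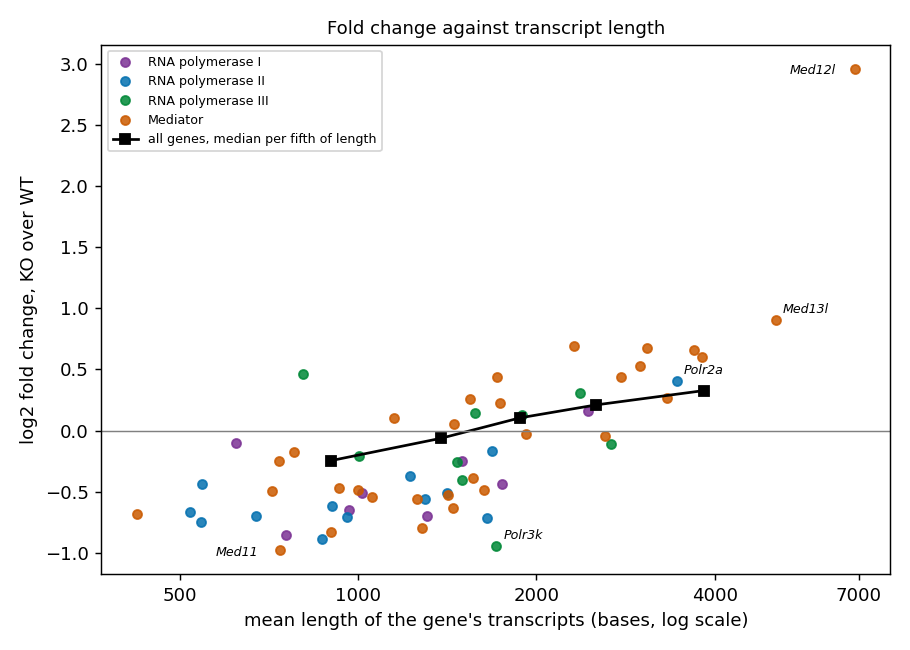
Log2 fold change of KO over WT (y axis) against the mean length of a gene's annotated transcripts in bases (x axis, log scale), members coloured by complex, 1 left out. Black squares are medians of all genes in quintiles of length, from −0.25 to 0.33; most short members lie below the line and most long ones above it.

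Factors that work with the polymerases were compared in the same fit. Of the 14 TFIID genes, 10 were below 0 (median −0.17) and 1 was called: Taf12, with 43.2 to 62.5 CPM in KO and 75.3 to 164 CPM in WT (log2 fold change −0.997, SE 0.23, adjusted p = 0.082). Tbp, used by all of the polymerases, had −0.63 (adjusted p = 0.15). Of 18 other general factors of Pol II, 17 were below 0 (median −0.38) and none was called. At an unadjusted p below 0.05 in edgeR, 7 were lower and none higher, beside 10.2% and 8.6% of all genes. For 1 of them all KO libraries lay below all WT libraries (3.48% of all genes). DESeq2 with the study's threshold called 1 lower (3.29% of all genes). Of 9 genes that assemble polymerases, 8 were below 0 and 1 was called, Ruvbl2, with 161 to 266 CPM in KO and 336 to 695 CPM in WT (−0.87, SE 0.23, adjusted p = 0.091). Of 7 Pol I factors tested, 5 were below 0 and none was called, with Rrn3 at −0.46 and Ubtf at −0.12. Of 16 Pol III factors none was called and 11 were above 0, with a median of 0.10 beside 0.06 for all genes, and at an unadjusted p below 0.05 2 were lower and 1 higher. Among them Brf1, of the Pol III initiation factor TFIIIB, had −0.51 (adjusted p = 0.18) and no overlap between groups, and Maf1, the Pol III repressor, 0.22. Subunits listed under other names were at −0.23 (Cd3eap, Pol I), −0.56 (Crcp, Pol III) and 0.07 (Polrmt, the mitochondrial polymerase), none called. Ubtf and Maf1 changed sign in alternatives.

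**Figure D5:**
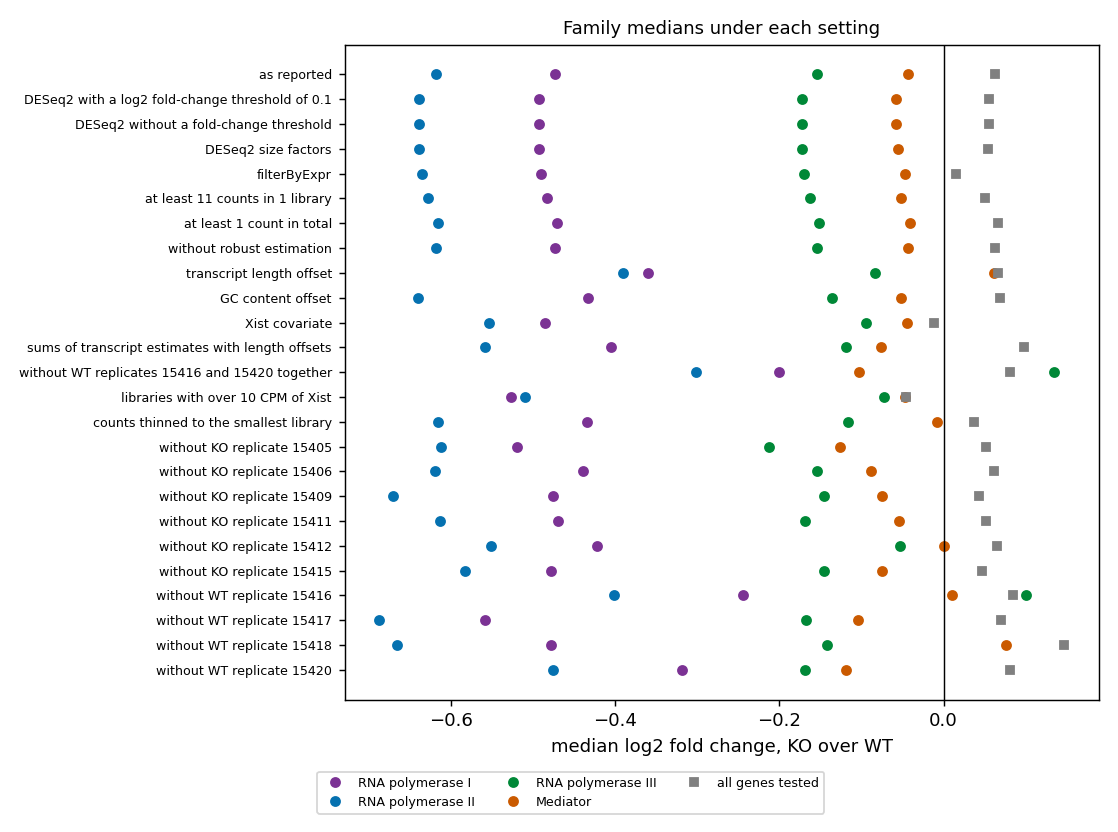
Median log2 fold change of KO over WT (x axis) per complex for the reported fit and each of the 24 alternatives (y axis), with the median of all genes tested as grey squares. The Pol I and Pol II medians lie left of 0 in every row, and those of Pol III and Mediator cross it in some.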

How the data were processed

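LT-HSC RNA from 6 KO and 4 WT livers was amplified by SmartSeq2, which copies polyadenylated RNA along its length, and sequenced without molecular identifiers; counts are reads, not molecules. Per the labels and the study's methods, reads were converted with bcl2fastq 2.20 and quantified by kallisto 0.44.0 on Gencode vM16 (mm10, GRCm38). The authors deposited, per library, estimated counts and TPM (scaled for effective length, equal in sum between libraries) of each transcript, and 1 gene table of estimated counts summed by symbol and rounded to whole counts, not normalized. How symbols were assigned is not given in the sources used here. All 10 value columns of the gene table were matched to samples by the number in the title. No source names separate litters, so p-values measure the spread between these libraries.

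A gene entered the test with 11 or more counts over the 10 libraries. The test was edgeR 4.0.16 in R 4.3.3 (TMM, glmQLFit with robust estimation, glmQLFTest) with Benjamini-Hochberg adjustment over 16725 genes and a threshold of 0.1, as in the study. SE was derived from the F statistic. DESeq2 1.42.0 with a log2 threshold of 0.1, the study's test, was an alternative. TPM was summed by symbol for shares, which were tested by two-sided exact permutation with adjustment over 4 shares at 0.05. CPM is TMM-normalized. Gene positions, lengths and strands were read from Gencode vM21 (GRCm38, newer than the authors' release), and promoters from RefSeq; Polr1f, Polr1h and Polr1has were matched as Twistnb, Znrd1 and Znrd1as. Member values in the gene table were within 1 count of the transcript sums for 96.8%.

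The genes named are members with an adjusted p below 0.1 or without overlap between groups, members and partners fixed by role, called genes of related lists, and members outside these that carry a limit or extreme of their list (chosen after their values were seen: Med9os, Med11, Med25, Med27, Med30, Polr1e, Polr1f, Polr1h, Polr2d and Polr2m). The members, the lists and the alternatives were chosen with earlier results of these data known. Counts and medians cover all 62 members, of which 1 is not reported singly here. Scripts were tested on simulated data. Alternatives are named in the closing section. Python 3.11.15, pandas 2.3.3, SciPy 1.17.1 and matplotlib 3.10.9 were used.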

Additional observations from a re-analysis of the deposited data

Results flagged for a closer look

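Of 94 groups of libraries examined for a single library far from the rest, 4 held one, and chance gives about 1 in 20 groups. The groups did not cover all 62 members, so this count is not one over the members. Med11, for example, is not among the 4, with 136 CPM in WT library 15420 and 37.6 to 39.7 CPM in the other WT libraries. Polr2f in WT library 15416 was at 173 CPM, with the other WT libraries at 89.2 to 94.0 CPM. Polr2h in the same library was at 171 CPM, with the others at 85.0 to 93.0 CPM. Polr2h in KO library 15412 was at 86.9 CPM, against 61.8 to 71.1 CPM in the other KO libraries. Med17 in KO library 15409 was at 52.3 CPM, against 36.2 to 41.5 CPM.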

How the results depend on the processing

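No paired analysis was possible because the groups share no replicate numbers. The calls per complex changed with several settings, and the cause was not tested. With the transcript length offset, the Xist covariate or an adjusted p below 0.05, 0 members were called in any complex. The same held for both further settings chosen after seeing the data: leaving out WT libraries 15416 and 15420 together, and using only libraries with over 10 CPM of Xist. Counts thinned to the smallest library, also chosen after seeing the data, gave 1 higher and 7 lower. DESeq2 without a fold-change threshold called 2 Pol I, 7 Pol II and 5 Mediator genes lower and 2 Mediator genes higher (all genes: 1145 lower and 998 higher, against 446 and 221). Both filterByExpr and the GC offset called 4 Pol II genes lower, and sums of transcript estimates called 0 Pol I genes. DESeq2 with the study's threshold called 551 genes lower and 585 higher, and 7 and 1 members. With single libraries left out, lower calls ranged from 0 to 1 in Pol I, 0 to 3 in Pol II, 0 to 1 in Pol III and 0 to 3 in Mediator, and higher calls from 0 to 1 in Mediator.

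The medians ranged from −0.56 to −0.24 (Pol I), −0.69 to −0.40 (Pol II), −0.21 to 0.10 (Pol III) and −0.13 to 0.08 (Mediator) with single libraries left out. With the length offset the Pol II median was −0.39. Without WT libraries 15416 and 15420 the medians were −0.20, −0.30 and 0.13 for Pol I, II and III. The differences of shares ranged from 13.8 to 18.7 points (Cdk19), 1.27 to 1.83 (Med12l), 1.08 to 16.8 (Med13l) and −16.9 to −4.13 (Polr3g). Of 430 values of named genes with 1 library left out, 363 kept their direction and side of the threshold, and of 602 under other alternatives 551 did. Most named genes were not called and so had no call to lose. Among the rest, 59 and 35 values were called members that lost their call. With 1 library left out, each of the 8 called members was called in only 1 (Med12l) to 4 (Med8) of the 10 fits. Without WT libraries 15416 and 15420, Med16 (−0.0682), Polr2k (0.087), Polr3g (0.0381) and Maf1 (−0.0558) reversed, and Ccnc did with the GC offset (−0.104). With single libraries left out, Polr1b ranged from −0.679 to 0.0409, Polr3a from −0.00134 to 0.634, Ubtf from −0.33 to 0.0265, and Polr3g reached 0.0978, all crossing 0. Low counts limit Med12l (5 to 16 per WT library) and Med9os.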
